A study of Homo sapiens with 12 samples.

Results

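The genes described here are the human zinc finger genes named ZNF with a 3-digit number, 252 genes in all of the 14232 genes measured by a probe set with 1 gene symbol. Members were chosen by symbol alone, from the annotation supplied with the arrays, and a gene with several probe sets was represented by the one with the highest mean over the 12 arrays. The reference table lists 251 of them as protein coding and 1 as a transcribed pseudogene, and 112 lie on chromosome 19, which holds 948 of the genes measured. Another 122 probe sets carried several symbols that included such a ZNF name, and these were not used.

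Most ZNF genes encode C2H2 zinc finger proteins, in which short repeated fingers, each folded around a zinc ion, read DNA bases. Many also carry a KRAB domain, which recruits the corepressor KAP1 (TRIM28) and through it histone methylation that silences the bound site, often a transposable element. In the human genome these genes arose largely by repeated duplication and sit in clusters, most of them on chromosome 19.

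RNA was measured in CCRF-CEM, a human T-lymphoblastic leukaemia line, after 3 h with 1 of 3 cytostatic compounds, and in untreated cells. AB61, which is 7-(2-thienyl)-7-deazaadenosine, was given at 250 nM. Tubercidin, the parent nucleoside 7-deazaadenosine, was given at 550 nM. Actinomycin D, a DNA-binding inhibitor of transcription, was given at 1 nM, and every dose equalled 5 times the IC50. The control cultures received no compound and no vehicle is described for them, so compound and vehicle cannot be told apart. Each group held 3 arrays labelled as biological replicates, all of the same cell line. The comparisons asked which genes differ in level after each treatment. The 3 treatments share the control arrays, so their differences against control are not independent of one another.

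The values are log2 RMA levels, in which background is corrected, arrays are brought to similar distributions and the probes of a gene are summarised, so these values do not show a fall in total mRNA. Array medians lay between 6.58 and 6.72, and correlations between arrays between 0.983 and 0.996. In control cells the 15 measured T lineage markers lay between the 57.5th and the 99.8th percentile of all genes, led by CD3D at 12.40, whereas the 5 myeloid markers lay between the 4.61st and the 37.9th. The 5 B lineage markers lay between the 34.7th and the 64.9th percentile and the 3 erythroid markers between the 21.9th and the 55.6th.

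The ZNF genes were of middling level. Their mean levels over the 12 arrays ran from 2.44 to 10.66 with a median of 6.85, against 1.77 to 13.41 with a median of 6.64 for all genes. Such levels compare genes only loosely, since probe sets differ in their response. The scatter of replicates was close to that of other genes except with actinomycin D: the median SD of a member was 0.20 with AB61, 0.13 with tubercidin, 0.15 with actinomycin D and 0.13 in control arrays, against 0.19, 0.13, 0.11 and 0.13 for all genes. The brightest probe sets were those of ZNF706 at 10.66, whose other probe set lay at 8.11, of ZNF644, a partner of the H3K9 methyltransferases G9a and GLP, at 9.85, of ZNF521, a regulator of blood progenitors, at 9.72, and of ZNF384, a transcription factor fused to other genes in acute leukaemia, at 9.67. The dimmest were ZNF781 at 2.44, ZNF215 at 2.49, ZNF112 at 2.54 and ZNF677 at 2.65, for which expression was not separated from background because no detection calls were used.

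After all 3 treatments more ZNF genes lay above control than below it in the deposited values, by small amounts, while their median turned below 0 when arrays were centred on the level of ribosomal protein genes. ZNF583 was the only member to pass the test in each treatment taken singly. With the 9 treated arrays pooled against the 3 control arrays, 7 members passed limma's test at an adjusted p of 0.05, of which ZNF583, ZNF623, ZNF287, ZNF821, ZNF398 and ZNF571 rose and ZNF367 fell. That is 7 of 252, while 1.05% of all genes passed (0.604% higher and 0.443% lower). At an unadjusted p of 0.05, 44 members differed, 39 higher and 5 lower, against 13.0% of all genes (6.84% higher and 6.20% lower). The pooled difference was above 0 in 166 members, against 52.3% of all genes, and its median was 0.06 over the members and 0.01 over all genes. No member differed by 2-fold or more in any comparison. In each of the 7 members the treated and control arrays did not overlap, which was so in 22 members, 20 higher and 2 lower, against 4.53% of all genes (2.63% higher and 1.90% lower).

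ZNF583, a KRAB zinc finger gene on chromosome 19, had levels of 6.17, 6.22 and 6.42 in AB61, 6.32, 6.31 and 6.47 in tubercidin and 6.21, 6.49 and 6.26 in actinomycin D, against 5.75, 5.46 and 5.50 in control. The 9 treated arrays all lay above the highest control array and the treatments overlapped one another. The treated arrays averaged 6.32 ± 0.12 (SD, n = 9) and the control arrays 5.57 ± 0.16 (SD, n = 3). Its pooled log2 difference was 0.75 (SE 0.09, limma adjusted p = 0.00492), a 1.68-fold rise. The difference was 0.70 for AB61 (SE 0.12, adjusted p = 0.0412), 0.80 for tubercidin (SE 0.12, adjusted p = 0.0185) and 0.75 for actinomycin D (SE 0.12, adjusted p = 0.0345). In the authors' deposited table ZNF583 has the same fold changes, with unadjusted p-values of 2.28e-05, 5.75e-06 and 1.08e-05 in that order. The pooled call was lost without control replicate 2 (0.70, adjusted p = 0.0656), without control replicate 3 (0.72, adjusted p = 0.0589) and under centring on the level of ribosomal protein genes (0.57, adjusted p = 0.0633).

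The genomic letters just upstream of the gene's start are shown for ZNF583, for ZNF287 as another riser and for ZNF367 as the member that fell, so that the starts of genes that moved in opposite directions can be set side by side. Each run is the 250 bases before the RefSeq start in GRCh38.p14, read along the gene, at chr19:56403764-56404013 (plus strand) for ZNF583, chr17:16569205-16569454 (minus strand) for ZNF287 and chr9:96418371-96418620 (minus strand) for ZNF367. Capitals mark matches, on either strand, to the NF-Y letters CCAAT or the SP and KLF letters GGGGCGGGG.
ZNF583: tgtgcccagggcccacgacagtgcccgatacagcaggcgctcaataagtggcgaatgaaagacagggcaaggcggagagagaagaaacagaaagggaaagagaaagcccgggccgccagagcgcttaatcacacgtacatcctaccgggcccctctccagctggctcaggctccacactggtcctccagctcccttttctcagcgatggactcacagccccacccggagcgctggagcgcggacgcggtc
ZNF287: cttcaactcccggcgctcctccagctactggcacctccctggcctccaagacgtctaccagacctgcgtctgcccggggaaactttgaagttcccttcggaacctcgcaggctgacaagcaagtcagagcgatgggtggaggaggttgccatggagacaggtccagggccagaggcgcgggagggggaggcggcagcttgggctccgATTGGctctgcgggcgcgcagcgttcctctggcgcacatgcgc
ZNF367: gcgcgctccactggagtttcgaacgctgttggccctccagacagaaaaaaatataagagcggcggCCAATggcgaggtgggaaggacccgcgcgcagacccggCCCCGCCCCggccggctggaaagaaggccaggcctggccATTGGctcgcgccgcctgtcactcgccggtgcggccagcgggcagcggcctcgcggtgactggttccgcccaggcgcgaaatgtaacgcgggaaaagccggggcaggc
The ZNF583 stretch holds 17 CpG pairs and none of the motifs searched, the ZNF287 stretch holds 18 CpG pairs and 1 NF-Y match, and the ZNF367 stretch holds 30 CpG pairs, 2 NF-Y matches and 1 SP and KLF match. Of the other members that rose, ZNF398 has 28 CpG pairs and none of the motifs in the same stretch. ZNF821, also a riser, has 27 CpG pairs and 1 NF-Y match. Risers thus also had CpG counts close to that of ZNF367. No stretch is given for ZNF571 and ZNF623. These matches describe letters and are not binding sites.

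ZNF623 had levels of 6.43, 6.51 and 6.77 in AB61, 6.61, 6.49 and 6.56 in tubercidin and 6.40, 6.45 and 6.48 in actinomycin D, against 6.10, 5.93 and 5.52 in control. All treated arrays were higher than all control arrays, and the control arrays spread most. It rose by 0.67 in the pooled comparison (SE 0.11, limma adjusted p = 0.0187). Taken singly, its difference was 0.72 for AB61 (adjusted p = 0.0621), 0.70 for tubercidin (adjusted p = 0.0911) and 0.60 for actinomycin D (adjusted p = 0.145), and none passed.

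ZNF287, which carries a SCAN and a KRAB domain, had levels of 5.39, 5.39 and 5.77 in AB61, 5.59, 5.65 and 5.69 in tubercidin and 5.39, 5.46 and 5.96 in actinomycin D, against 5.09, 4.77 and 4.80 in control. Control replicate 1 lay closest to the treated arrays, without overlap. The pooled difference was 0.70 (SE 0.13, limma adjusted p = 0.0282). ZNF398, known as ZER6, binds the estrogen receptor alpha. It had levels of 8.40, 8.17 and 8.22 in AB61, 8.25, 8.15 and 8.09 in tubercidin and 8.36, 8.22 and 8.12 in actinomycin D, against 7.99, 7.67 and 7.67 in control. Again control replicate 1 lay nearest, and the pooled difference was 0.44 (SE 0.09, limma adjusted p = 0.0466).

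ZNF821 had levels of 6.37, 6.37 and 6.16 in AB61, 6.12, 6.30 and 6.26 in tubercidin and 6.10, 6.23 and 6.22 in actinomycin D, against 5.75, 5.93 and 5.86 in control. Its rise of 0.39 (SE 0.08, limma adjusted p = 0.0435) was small but larger than the scatter of its replicates. ZNF571, a KRAB zinc finger gene of chromosome 19, had levels of 5.25, 5.37 and 5.37 in AB61, 5.32, 5.29 and 5.40 in tubercidin and 5.23, 5.44 and 5.45 in actinomycin D, against 4.78, 5.06 and 5.01 in control. The groups were close but did not overlap, and the pooled difference was 0.40 (SE 0.09, limma adjusted p = 0.0466).

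ZNF367 (ZFF29), a C2H2 factor described in erythroid cells, was the member that passed in the other direction. It had levels of 7.97, 7.92 and 7.67 in AB61, 7.80, 7.80 and 8.0 in tubercidin and 7.94, 7.77 and 7.84 in actinomycin D, against 8.18, 8.24 and 8.50 in control. Every treated array was below every control array. It fell by 0.45 in the pooled comparison (SE 0.10, limma adjusted p = 0.0466).

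**Figure D1:**
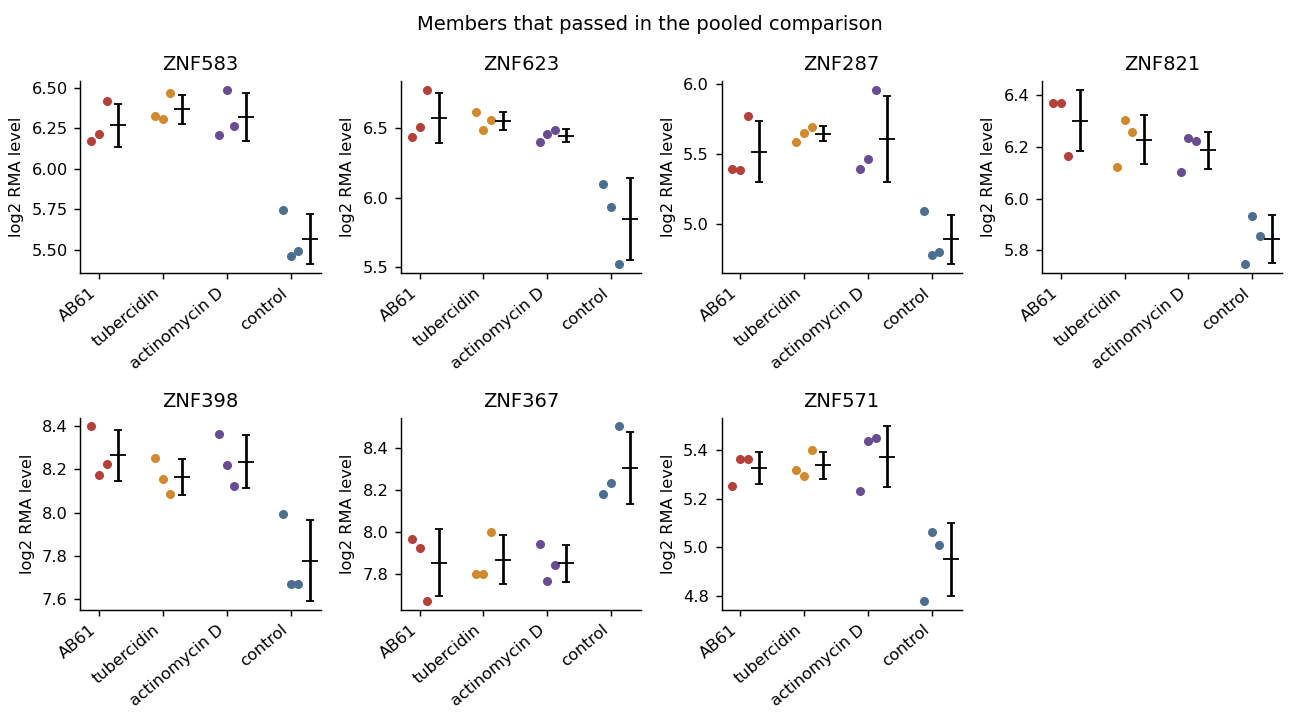
Log2 RMA level of the 7 members that passed in the pooled comparison, on the y axis of each panel, by group on the x axis. Points are single arrays, and bars give the mean ± SD of the 3 arrays of a group. The treated arrays lie above the control arrays for 6 members and under them for ZNF367, and each plot has its own axis range.

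These 7 calls depended on single arrays. When control replicate 2 or control replicate 3 was left out, 0 members passed in the pooled comparison. The number was 1 without actinomycin D replicate 2, 2 without tubercidin replicate 1 or 3, 3 without AB61 replicate 2 or actinomycin D replicate 1 or 3, 4 without AB61 replicate 1 or control replicate 1, and 5 without tubercidin replicate 2. It was 10 without AB61 replicate 3. Centring each array on its median gave 3 calls, centring on the level of 25 ribosomal protein genes gave 2, both lower, and quantile normalization gave 4. The share of all genes passing was not set beside these counts, so they do not compare members with all genes. With each of the 12 arrays left out in turn, ZNF583 passed 10 times, ZNF623 9 times, ZNF287 7 times, ZNF398 2 times, and ZNF821, ZNF571 and ZNF367 1 time each. The lowest and highest pooled differences over the arrays left out were 0.70 and 0.84 for ZNF583, 0.51 and 0.80 for ZNF623, and -0.51 and -0.35 for ZNF367.

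**Figure D2:**
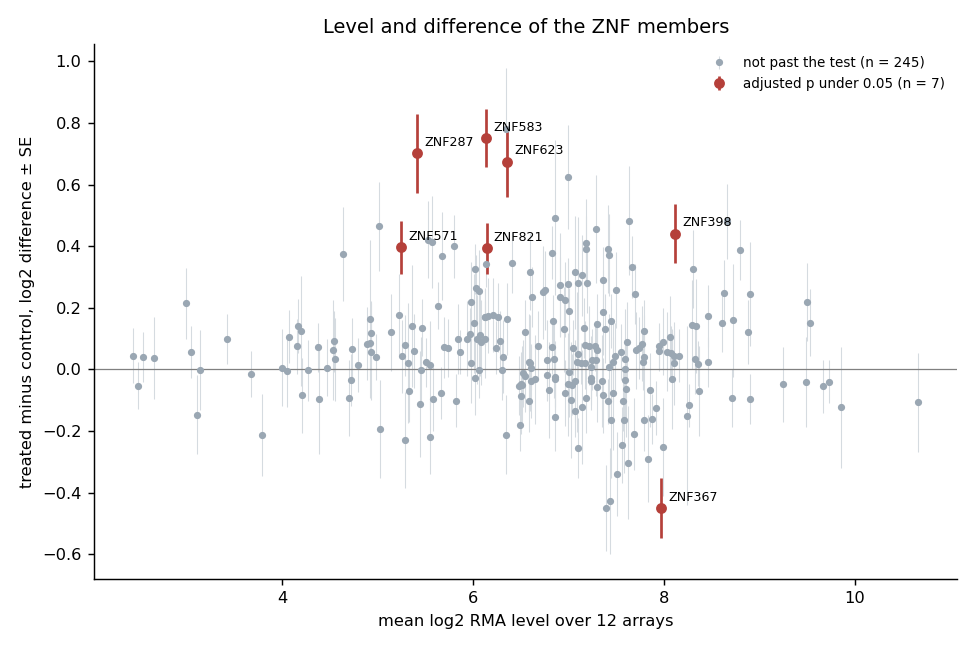
Mean log2 RMA level over 12 arrays on the x axis, and the difference of the 9 treated minus the 3 control arrays with its standard error on the y axis, for 252 members. The 7 named members that passed stand away from 0 at levels between 5.25 and 8.11, and some of the other members lie as far out without having passed.

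In AB61-treated cells, ZNF583 was the member that passed the test (1 of 252), where 0.169% of all genes passed (0.0913% higher and 0.0773% lower). That fit held no pairing of arrays. As an alternative the replicate number was added as a block, although the labels do not state a pairing. With the number as a block in all 12 arrays, tubercidin and actinomycin D included, 5 members passed, where 1.36% of all genes passed (0.611% higher). These were ZNF583, ZNF398, ZNF827, ZNF821 and ZNF623, all higher. With that block in the AB61 and control arrays alone 0 members and 0.0773% of all genes passed. In the fit without a block, 36 members differed at an unadjusted p of 0.05, 30 higher and 6 lower. The share of all genes was 12.1% (5.82% higher and 6.25% lower). The AB61 and control arrays did not overlap in 40 members, 30 higher and 10 lower, against 12.6% of all genes (6.42% higher and 6.18% lower). The median difference over the members was 0.06 and over all genes 0.04, with 160 members above 0 against 59.6% of all genes. The call of ZNF583 in AB61 held without AB61 replicate 3 or tubercidin replicate 2 and was lost without any other array, up to an adjusted p of 0.204 without control replicate 2.

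In the fit without a block no other member passed in AB61. ZNF623 differed by 0.72 and ZNF287 by 0.63, both more than the members that follow on the higher side. ZNF827 had a level of 9.18, 8.87 and 8.63 in AB61, against 8.36, 8.16 and 8.38 in control. The groups did not overlap, and the difference was 0.60 (SE 0.15, adjusted p = 0.136). ZNF688 differed by 0.49 (SE 0.16, adjusted p = 0.246) and ZNF528 by 0.54 (SE 0.21, adjusted p = 0.324). On the lower side, ZNF830, a protein of splicing and DNA damage responses, had levels of 6.95, 6.96 and 7.42 in AB61, against 7.75, 8.04 and 7.47 in control. AB61 replicate 3 and control replicate 3 nearly met, and the difference was -0.64 (SE 0.21, adjusted p = 0.241).

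In tubercidin-treated cells the share of members above control stood furthest from that of all genes. ZNF583 was again the member called (1 of 252), where 0.0913% of all genes were called (0.0562% higher and 0.0351% lower). At an unadjusted p of 0.05, 42 members differed, 40 higher and 2 lower, against 8.80% of all genes (5.27% higher and 3.53% lower). The tubercidin and control arrays did not overlap in 54 members, 49 higher and 5 lower, against 14.0% of all genes (7.43% higher and 6.58% lower). The median difference of the members was 0.06, with 162 above 0, whereas the median of all genes was -0.02, with 43.0% above 0. The call of ZNF583 was lost without tubercidin replicate 1 or 3 and without control replicate 2 or 3, with a highest adjusted p of 0.158 without tubercidin replicate 3.

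The difference of greatest size in tubercidin belonged to ZNF616, another KRAB zinc finger gene of chromosome 19. It had levels of 6.96, 6.47 and 6.76 in tubercidin, against 6.05, 5.49 and 5.72 in control. The groups did not overlap, but the replicates of both spread widely, and a difference of 0.98 (SE 0.24) had an adjusted p of 0.177. ZNF528 had levels of 7.01, 7.14 and 7.56 in tubercidin, against 6.46, 6.58 and 6.52 in control (difference 0.72, SE 0.21, adjusted p = 0.242). ZNF573 differed by 0.60 (SE 0.19, adjusted p = 0.270). On the lower side ZNF367 differed by -0.44 (SE 0.12, limma adjusted p = 0.208) and ZNF692 by -0.41 (SE 0.17, adjusted p = 0.487). The other members named on this side were closer to 0, at -0.18 for ZNF669, -0.16 for ZNF800 and -0.11 for ZNF687.

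In cells given actinomycin D, ZNF583 was once more the member called (1 of 252), where 0.119% of all genes were called (0.0632% higher and 0.0562% lower). At an unadjusted p of 0.05, 33 members differed, 28 higher and 5 lower, against 9.39% of all genes (4.89% higher and 4.50% lower). The actinomycin D and control arrays did not overlap in 47 members, 34 higher and 13 lower, against 14.4% of all genes (7.23% higher and 7.22% lower). The median difference was 0.04 over the members, with 153 above 0, and 0.00 over all genes, with 50.8% above 0. The call of ZNF583 held without AB61 replicate 3, tubercidin replicate 2 or control replicate 1, and was lost without any other array, with a highest adjusted p of 0.266 without actinomycin D replicate 2. ZNF616 differed by 0.74 (SE 0.24, adjusted p = 0.323). ZNF681 differed by 0.64 (SE 0.31, adjusted p = 0.557), and by 0.28 without actinomycin D replicate 3, which at 7.85 stood above the other 2 at 6.66 and 6.86.

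**Figure D3:**
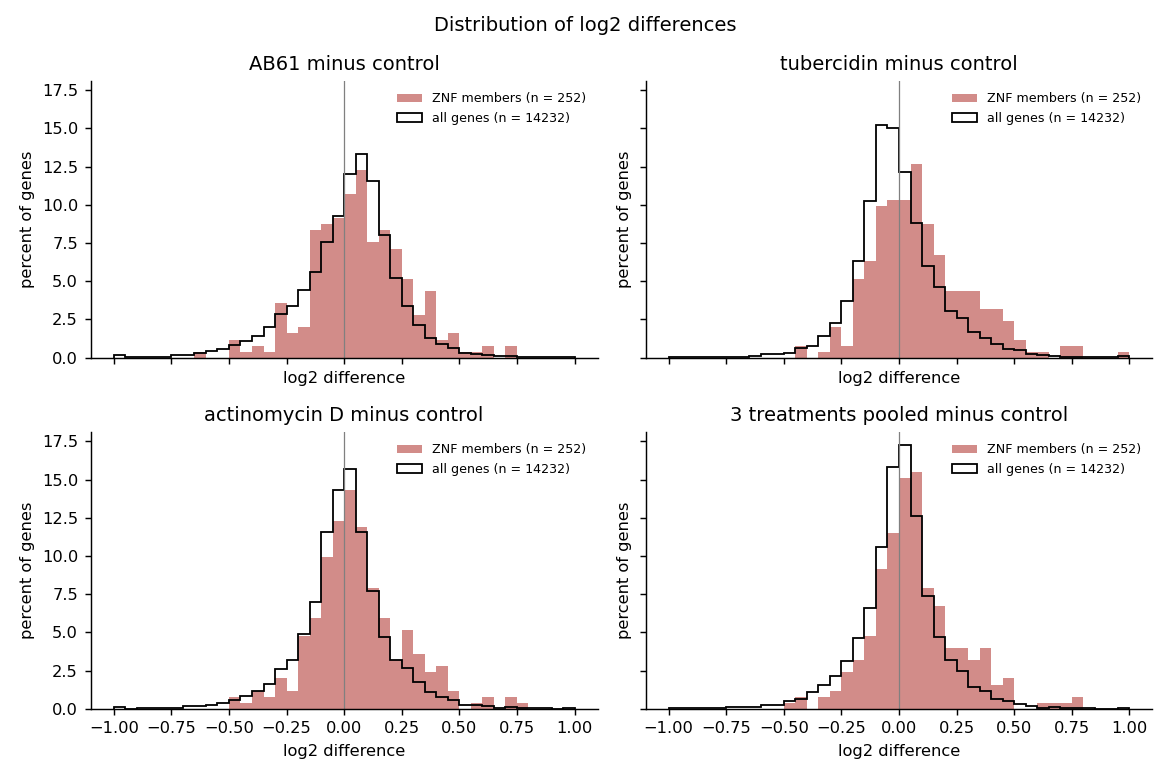
Distribution of log2 differences against control in 4 comparisons, as percent of genes (y axis) by log2 difference (x axis, in steps of equal width, with values beyond 1 on either side drawn in the end steps). Filled bars are the 252 members and the black line all 14232 genes, and in the tubercidin panel the members' median is 0.06 where that of all genes is -0.02.

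Array by array, the shift was small and uneven. The median deviation of the members from their control means was 0.04, 0.09 and 0.08 on the AB61 arrays, 0.03, 0.09 and 0.08 on the tubercidin arrays and 0.03, 0.03 and 0.06 on the actinomycin D arrays, against 0.01, 0.02 and -0.04 on the control arrays. As deposited, every treated array was above every control array. All genes on the same arrays had medians of 0.05, 0.10 and -0.05 in AB61, 0.00, 0.00 and -0.05 in tubercidin and 0.03, 0.00 and -0.03 in actinomycin D, against 0.00, 0.04 and -0.05 in control. Members therefore stood apart from all genes on some arrays, such as AB61 replicate 3, and not on others, such as AB61 replicates 1 and 2.

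The direction of the shift depended on the scaling. Centring on the array median kept the members' median above 0 in all 3 treatments. Centring on the median level of the ribosomal protein genes turned it to -0.05 with AB61, -0.15 with tubercidin and -0.19 with actinomycin D, where all genes stood at -0.07, -0.24 and -0.22. Centring instead on the median deviation of the same ribosomal protein genes, an alternative chosen after seeing the data, gave 0.20, 0.12 and 0.14, where all genes stood at 0.18, 0.03 and 0.11. Each of these centrings shifts every gene of an array by one amount. The gap between the members' median and that of all genes is therefore the same under each, and its sign could not change.

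**Figure D4:**
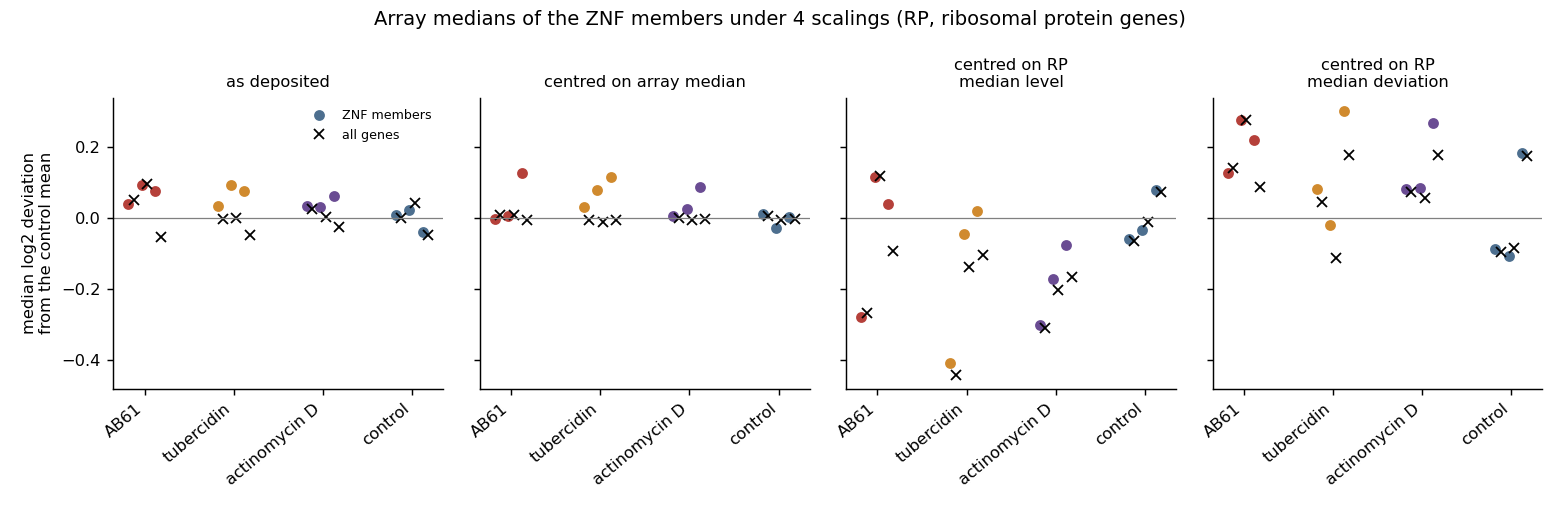
Median log2 deviation from the control mean on each array (y axis), by group (x axis), under 4 scalings of the arrays. Filled points are the medians of the 252 members and crosses those of all genes, and the 2 panels centred on ribosomal protein genes (RP) move members and all genes together, down in one and up in the other.

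By position, the 112 members on chromosome 19 had median differences of 0.09 with AB61, 0.10 with tubercidin and 0.06 with actinomycin D, against 0.05, 0.04 and 0.02 for the 140 members on other chromosomes. The 836 other genes on chromosome 19 had medians of 0.05, -0.06 and -0.03. In replicate order, array medians of the chromosome 19 members were -0.006, 0.128 and 0.184 in AB61, against 0.068, 0.062 and 0.023 for members elsewhere. In tubercidin they were 0.054, 0.109 and 0.196, against -0.004, 0.077 and 0.035. In actinomycin D they were 0.024, 0.035 and 0.142, against 0.035, 0.019 and 0.017. On replicate 1 the chromosome 19 members were thus lower in AB61 and actinomycin D, and the gap was widest on replicate 3. These groups differ in level too, with a median of 6.59 for the chromosome 19 members and 7.12 for the others, and the part of level was not tested. These medians are as deposited, and ribosomal protein centring shifts every gene of an array by one amount, which leaves the gaps between these groups on an array as they are.

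Members whose starts lie within 500 kb of the next formed 9 clusters of 6 or more, with 104 members. The cluster from ZNF146 to ZNF573 on chromosome 19 had 19 members. Of these, 18 lay above control in tubercidin, against 43.0% of all genes, with a median difference of 0.24. Its array medians were -0.01, 0.14 and 0.32 in AB61, 0.14, 0.21 and 0.35 in tubercidin and -0.03, 0.10 and 0.41 in actinomycin D, against -0.04, -0.01 and 0.05 in control. All tubercidin arrays lay above the control arrays, while AB61 replicate 1 and actinomycin D replicate 1 lay among them, and replicate 3 was highest in every treatment.

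The cluster from ZNF175 to ZNF331, with 15 members, had medians of 0.14 after AB61, 0.27 after tubercidin and 0.18 after actinomycin D. It holds ZNF616 and also ZNF331, which lay below control in actinomycin D at -0.36 (SE 0.15, adjusted p = 0.457). In the cluster from ZNF460 to ZNF132, with 19 members, the medians were 0.15, 0.13 and 0.11. The cluster on chromosome 7 from ZNF786 to ZNF467, with 8 members, had medians of -0.07, -0.03 and -0.05. In these 4 clusters 0 members passed in a single treatment, where 0.169% (AB61), 0.0913% (tubercidin) and 0.119% (actinomycin D) of all genes passed. In the pooled comparison, where 1.05% of all genes passed, ZNF571 of the first and ZNF398 of the chromosome 7 cluster passed. ZNF583 lies in the cluster from ZNF579 to ZNF471, whose 10 members had medians of 0.07, -0.01 and 0.01. Other chromosome 19 clusters moved less. The one from ZNF317 to ZNF561, with 6 members, had medians of -0.04, 0.01 and -0.04. From ZNF653 to ZNF490, with 8 members, they were 0.02, 0.08 and 0.06, and from ZNF575 to ZNF180, with 12, 0.02, 0.11 and 0.02. On chromosome 16 the 7 members from ZNF771 to ZNF843 had 0.07, 0.06 and 0.02.

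**Figure D5:**
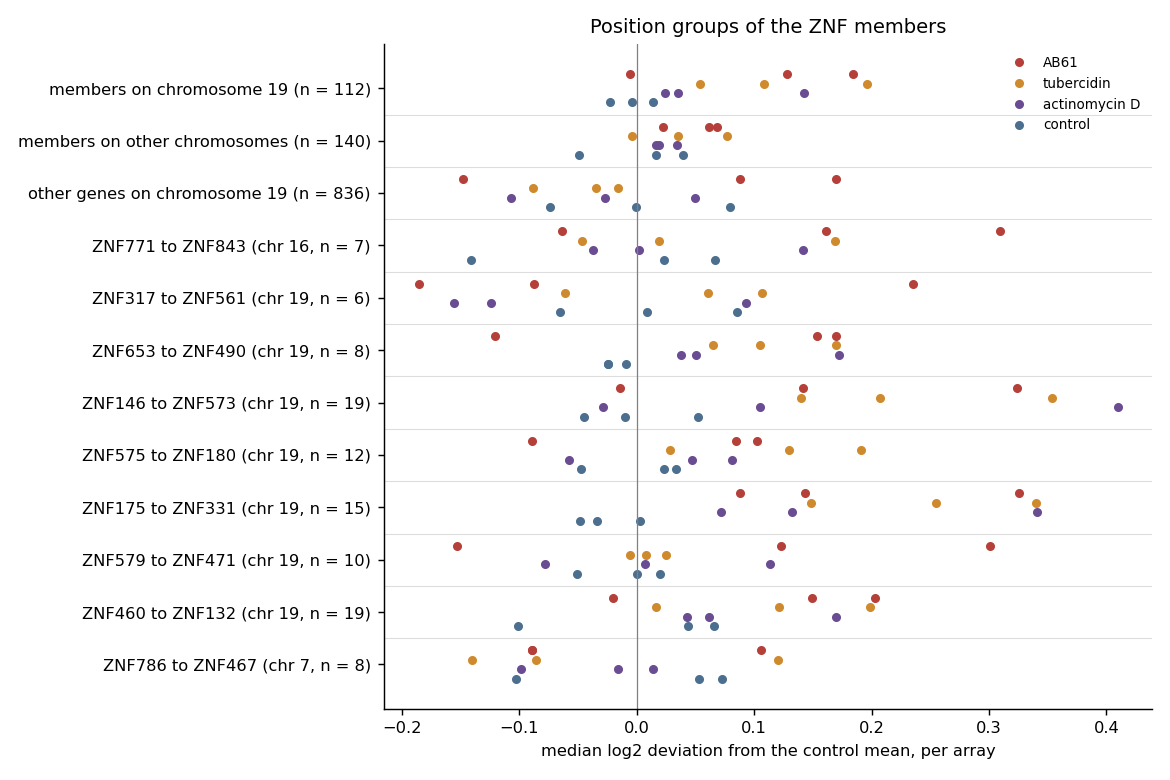
Median log2 deviation from the control mean on each array (x axis) for members grouped by chromosome and by cluster (rows, with the number of genes). Points are single arrays, coloured by group, and the clusters from ZNF146 to ZNF573 and from ZNF175 to ZNF331 have their treated arrays furthest to the right.

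By level, the dimmest 84 members had median differences of 0.10 with AB61, 0.05 with tubercidin and 0.05 with actinomycin D, and the brightest 84 had -0.01, 0.08 and 0.03. The brightest members thus had the lower median in AB61 and the higher one in tubercidin.

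Some ZNF genes have well described roles, and of 22 such members chosen by name 21 were measured. No single-symbol probe set stood for ZNF207. In the pooled comparison 10 of the 21 lay above 0, against 52.3% of all genes, 0 passed, against 1.05%, and 2 had an unadjusted p under 0.05, against 13.0%. They had a median of -0.04, against 0.06 over all members and 0.01 over all genes. The range ran from -0.25 for ZNF451, a SUMO ligase, to 0.39 for ZNF143, an activator of small nuclear RNA and many protein-coding promoters.

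ZNF143 had levels of 7.05, 7.34 and 7.81 in AB61, 7.45, 7.70 and 7.66 in tubercidin and 7.33, 7.52 and 7.71 in actinomycin D, against 7.30, 7.05 and 7.00 in control. AB61 replicate 1 fell among the control arrays, and the difference of 0.39 (SE 0.14) had an adjusted p of 0.221. ZNF217, a corepressor-bound oncoprotein, differed by 0.33 (SE 0.13, adjusted p = 0.268). Of the silencing factors, ZNF274, which recruits the methyltransferase SETDB1, stood at -0.13 and ZNF445, a regulator of genomic imprinting, at -0.09. Among those that act on RNA and protein, ZNF598, which marks collided ribosomes, stood at -0.04 and ZNF622, a factor of large ribosomal subunit assembly, at 0.03. Signs this close to 0 depend on the scaling: centring on the level of ribosomal protein genes turned 8 of the 21 pooled differences, ZNF622 among them (-0.15), and centring on their median deviation turned 6, ZNF445 (0.0057) and ZNF598 (0.06) among them.

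The other zinc finger families were set beside the members. Of 32 ZNF genes with 1- or 2-digit names, 29 lay above control in tubercidin, against 43.0% of all genes. Their medians were 0.10 after AB61, 0.15 after tubercidin and 0.09 after actinomycin D. The largest pooled differences there were 0.56 for ZNF45 (SE 0.15, adjusted p = 0.101) and 0.43 for ZNF84 (SE 0.11, adjusted p = 0.0920). The 11 ZFP genes had a pooled median of 0.09 and the 17 ZKSCAN and ZSCAN genes also 0.09. The 17 measured genes of the KAP1 corepressor machinery had a pooled median of -0.05, with TASOR of the HUSH complex at -0.34 (SE 0.18, adjusted p = 0.472) and the chromatin remodeller SMARCAD1 at 0.33 (SE 0.18, adjusted p = 0.492). The number passing was 0 in each of these 4 lists in each comparison with control, where between 0.0913% and 1.05% of all genes passed. At an unadjusted p of 0.05 in the pooled comparison there were 8 of the 1- or 2-digit ZNF genes, 3 of the ZFP genes, 3 of the ZKSCAN and ZSCAN genes and 1 of the KAP1 genes, against 13.0% of all genes.

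AB61 and tubercidin differ by the thienyl group at position 7 of the base, which AB61 carries and tubercidin lacks. They were given at 250 and 550 nM, so their nM doses differ while the multiple of the IC50 and the time were equal. For ZNF583 the AB61 minus tubercidin difference was -0.10 (95% interval -0.35 to 0.15, limma adjusted p = 0.838). Over the 7 called members and the 3 pairs of treatments, 21 values in all, differences ran from -0.13 to 0.13 and the 95% intervals reached from -0.47 to 0.42.

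Over all 252 members 0 passed in any of the 3 pairs of treatments, and 0% of all genes passed. At an unadjusted p of 0.05, 10 members differed between AB61 and tubercidin, against 5.07% of all genes, 4 between AB61 and actinomycin D, against 1.83%, and 4 between tubercidin and actinomycin D, against 1.29%. The largest differences between AB61 and tubercidin were 0.49 for ZNF677 (95% interval 0.13 to 0.84, adjusted p = 0.793) and -0.53 for ZNF675 (95% interval -1.30 to 0.23, adjusted p = 0.793). ZNF675, a negative regulator of TRAF6 signalling, had levels of 7.33, 7.83 and 8.57 in AB61 and 8.20, 8.32 and 8.80 in tubercidin, against 7.95, 8.23 and 8.89 in control. Replicate 3 was the highest array in every group, and the spread within a group exceeded the difference between groups. Its difference was -0.25 without AB61 replicate 1, -0.86 without AB61 replicate 3 and -0.35 without tubercidin replicate 3.

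ZNF718 differed by -0.49 between AB61 and tubercidin, and by -0.24 without AB61 replicate 2. ZNF154 differed by 0.39, and by 0.25 without tubercidin replicate 2. Between tubercidin and actinomycin D the extremes were 0.54 for ZNF573 (95% interval 0.14 to 0.94) and -0.55 for ZNF679 (95% interval -0.98 to -0.11), both with a limma adjusted p of 1.00. Between AB61 and actinomycin D they were 0.40 for ZNF208 (95% interval -0.01 to 0.82) and -0.41 for ZNF679 (95% interval -0.84 to 0.03), again with an adjusted p of 1.00. The value of ZNF679 was -0.65 without AB61 replicate 1, -0.26 without AB61 replicate 3 and -0.27 without actinomycin D replicate 1.

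Of the 5 members with more than 1 single-symbol probe set, 4 had probe sets of opposite sign in the pooled comparison. ZNF706 had a difference of -0.11 on the probe set at a level of 10.66 and 0.65 on that at 8.11, and whether the brighter one measures this gene or a copy of it elsewhere was not tested. ZNF540 had -0.08 at 5.67 and 0.20 at 4.16. Sequence shared among ZNF genes can also join their signals, and this was not tested. The widest scatter over the control arrays was in ZNF597, at 7.17, 7.77 and 8.17, ZNF675 and ZNF160, at 6.79, 6.97 and 7.54.

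Over the 12 arrays the genes whose levels followed ZNF583 most closely were ULK4 (Pearson r = 0.972), ATP10D (0.968), SERPINB8 (0.960), KIAA0753 (0.955) and ADD1 (0.954). These are descriptions over 12 arrays that share the same 4 groups.

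In the 300 bases around the RefSeq start (250 before and 50 after), available for 214 members, the median GC content was 62.3%, against 63.3% for the 11385 genes tested that have such a sequence. The ETS letters CCGGAAG or their reverse CTTCCGG occurred in 74 members (34.6%), against 14.5% of the genes tested and 10.7% of all 27305 promoters. The NF-Y letters CCAAT (reverse ATTGG) occurred in 44.4% of members, against 36.5% of the genes tested and 35.7% of all promoters, and the SP and KLF letters GGGGCGGGG (reverse CCCCGCCCC) in 22.0%, against 23.8% and 16.0%. The YY1 letters AAGATGGC (reverse GCCATCTT) occurred in 5.61% of members, against 4.10% and 3.03%. The NRF1 palindrome occurred in 2.80%, against 1.77% and 1.36%, and the ZBTB33 palindrome in 0.467%, against 0.694% and 0.469%. No searched motif contains another. The 74 members with the ETS letters had a pooled median difference of 0.08, and the 140 without them 0.04. In the pooled comparison 0 of the 74 and 5 of the 140 passed, against 1.05% of all genes. Their median levels differed too, at 7.08 and 6.76, and the part of level was not tested.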

How the data were processed

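Per the labels' protocols, CCRF-CEM cells were treated for 3 h, total RNA was extracted with Trizol and biotinylated cDNA was made for Affymetrix whole-transcript arrays. The deposited levels are log2 values made by the authors with RMA in the oligo package, and limma is listed too, per the submitters' processing notes. Their versions are not given in the sources used here. In addition, the authors' comparison tables hold log2 fold changes and an unadjusted p-value for each probe set, and were used only for the values credited to them. No further normalization was applied. Of 22011 probe sets, 14432 carried 1 gene symbol, 2408 several and 5171 were not listed. The brightest single-symbol probe set per gene gave 14232 genes.

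All 12 arrays in 4 groups of 3 were fitted in limma 3.58.1 (R 4.3.3, lmFit and eBayes), with 7 contrasts and Benjamini-Hochberg adjustment over all genes of a contrast at 0.05, two-sided. The pooled contrast sets the mean of the 3 treatments against control. Precision is limited by the 3 arrays a group, and the median SE of a member was 0.14 against control. The scripts were tested on simulated data. The labels do not state that replicate numbers pair arrays across groups. Pearson correlations of deviations for same-numbered arrays of control and AB61 were 0.158, 0.355 and 0.268. Every other pair of groups had a value under 0.1, so the block was read only for AB61 against control. This choice rests on these same values, and the main fit held no block. Single values in those other pairs were higher, as for AB61 and actinomycin D with 0.596, -0.056 and 0.498. The block in 12 arrays applies the number to those other pairs too. The all-gene median was lowest on replicate 3 in every group, at -0.05 in AB61, -0.05 in tubercidin, -0.03 in actinomycin D and -0.05 in control. Whether the number has an effect shared by more groups was not tested.

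The members and the lists compared with them were chosen with earlier results of these data known. Members were named if they passed in any contrast, if they had one of the 6 largest differences per direction among members whose arrays did not overlap (2 per direction between treatments), or for extreme level, control scatter or disagreeing probe sets. The members with a stated role were chosen by hand after results were seen, and not for how they moved. Alternatives covered scaling, a filter on dim genes, variance model, array weights, samples in the fit, the replicate block, probe set choice and each array left out. Promoter sequences are RefSeq's, GRCh38.p14. Counts of zinc fingers and of KRAB domains were not made here. Figures were drawn in Python 3.11.15 with matplotlib 3.10.9.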

Additional observations from a re-analysis of the deposited data

How the results depend on the processing

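With 3 arrays a group, small differences are not resolved. Of the 67 differences named for size or for passing, 0 changed sign under an alternative. Over all alternatives 1480 values kept their side of the threshold, 128 lost it and 32 gained it. Most of the 67 had not passed, and only those that had could lose it. Apart from left-out arrays, the call of ZNF583 held in 5 of 13 alternatives in each single treatment. Pooled, ZNF583 held in 10 of 11 and ZNF571 in 4 of 10. Members named for role, level or disagreeing probe sets were not among the 67. Several of those members changed sign with the scaling or the probe set, as given above. The counts of members called were 1 in AB61, 1 in tubercidin, 1 in actinomycin D and 7 pooled. In the same order they were 0, 0, 0 and 3 with median centring, 0, 0, 0 and 2 with ribosomal protein level centring, 0, 0, 0 and 2 with ribosomal protein deviation centring (chosen after seeing the data), 0, 0, 0 and 4 after quantile normalization, 0, 0, 0 and 4 after removing the trend with intensity, and 0, 0, 0 and 2 with all probe sets adjusted together. Array weights gave 7, 2, 11 and 13, by the gene-by-gene method, a choice made after the default method had stopped without converging and its counts had been seen. The fit of 2 groups only gave 0, 0 and 0, and omitting the dimmest genes gave 2 in AB61. With the replicate block in 12 arrays they were 5, 3, 4 and 22. With the block in 2 groups only they were 0 in AB61, 1 in tubercidin (ZNF616) and 0 in actinomycin D. In AB61 the share of all genes passing was 1.36% with the block in 12 arrays and 0.0773% in 2 groups only, against 0.169% in the main fit. No such share was set beside the counts under the other alternatives, so those counts are not a result about the members. The labels state no pairing, the main fit held no block, and the block was read only for AB61 against control. With 1 array left out the counts of members called ranged from 0 to 2, 0 to 2, 0 to 1 and 0 to 10. The members' median difference in AB61, tubercidin, actinomycin D and pooled was -0.052, -0.15, -0.19 and -0.13 with level centring, 0.20, 0.12, 0.14 and 0.15 with deviation centring, and 0.031 in AB61 with the trend removed. With 1 array left out the medians ranged from 0.05 to 0.09, 0.05 to 0.08, 0.02 to 0.06 and 0.05 to 0.07. Between treatments 0 members were called under any alternative run.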
